A study of Mus musculus with 12 samples.

Results

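Glycolysis splits glucose into pyruvate, and the response to low oxygen, run by the hypoxia-inducible factor HIF, raises many of the genes that code for its enzymes. The genes described here are 36 listed members of both systems: glucose carriers, the enzymes of each step of glycolysis, the proteins that decide the fate of pyruvate and lactate, HIF-1α with its hydroxylases, and HIF targets outside glycolysis. A gene was taken where a probe set carried its symbol and no other, and where several did, the brightest on average over the 12 arrays stood for it. This gave 31 of the 36 genes, among 12394 genes in all. Hk3, Gpi1, Pfkfb4, Eno1 and Bnip3l were not analysed here.

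The cells were macrophages grown from mouse bone marrow (strain 129-SvEv-Tac) over 5 days in 30% L-cell conditioned medium, which supplies a macrophage growth factor, with 10% serum. Every group carried the Il10 knockout, so the cells could make no IL-10 of their own: the genotypes were IL10-/- and p50-/-IL10-/-, the second of which also lacks Nfkb1, the gene of the NF-κB subunit p50 and of its precursor p105. Cells of each genotype were left without stimulus, were given lipopolysaccharide (LPS, from the outer membrane of bacteria) at 1 ng/ml, or were given LPS at 1 ng/ml together with IL-10 at 0.3 ng/ml, and RNA was taken at 4 h. Each of these 6 groups held 2 arrays, called biological replicates in the labels, and nothing else says that they came from separate animals, so the p-values rest on the spread between the 2 arrays of each group, which may be technical. The effects of losing p50 and of losing p105 cannot be told apart with these genotypes, and no group had a working Il10 gene.

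Glucose enters through GLUT carriers and is trapped by hexokinase. Phosphofructokinase commits it to the pathway, the investment steps spend ATP, and the payoff steps from Gapdh to pyruvate kinase return it. In macrophages activated by LPS much of the pyruvate goes to lactate, which lactate dehydrogenase makes and the carrier MCT4 exports. HIF-1α is marked for destruction by the prolyl hydroxylases of the Egln family while oxygen is present, and once stable it binds short sites whose core reads ACGTG or GCGTG. IL-10 restrains activated macrophages through the factor STAT3, and p50 is a subunit of NF-κB that can form repressive dimers with itself.

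The HIF core was looked for in RefSeq promoters (GRCm38.p6), from 250 bases before the start of transcription to 50 bases after it. The letters searched were ACGTG and GCGTG with their reverse complements CACGT and CACGC, and overlapping matches were counted separately. A window was at hand for 29 of the 31 genes, without Slc2a3 and Ndrg1. At least 1 core lay in a window of 27 of the 29 (93.1%), against 46.7% of the 27025 genes in the table. By window it was 34 of 43 (79.1%), against 43.8% of all 32851 windows. At least 2 cores in 1 window were found for 23 of the 29, against 22.9% of all genes, and at least 3 for 13, against 10.2%. Ldha held the most, 7 in 1 window, and Eno2 and Tpi1 held none. Every string searched holds the bases CG. The genes compared were not matched for base content, for expression or for windows per gene. A match is a string of letters and not a binding site, and many of these genes were listed as known HIF targets.

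The bases before the start are printed for 6 genes, with the cores in capitals: 5 whose levels differed with IL-10 in IL10-/- cells, and Eno2, which differed most between the genotypes under LPS and has no core in this window. They are Slc2a1 at chr4:119108495-119108744 (plus strand), Pfkfb3 at chr2:11502091-11502340 (minus strand), Ldha at chr7:46845554-46845803 (plus strand), Slc16a3 at chr11:120948817-120949066 (plus strand), Bnip3 at chr7:138909507-138909756 (minus strand) and Eno2 at chr6:124769674-124769923 (minus strand). Each runs 5′ to 3′ over 250 bases on the strand of its gene. Pfkfb3 and Ldha have 2 windows each, and the one with more cores is shown. The 6 genes were picked for display. Tpi1 also rose with IL-10 in IL10-/- cells and has no core, while P4ha2 has 4 and was not called for IL-10. A link between cores and the IL-10 effect was not tested.
Slc2a1: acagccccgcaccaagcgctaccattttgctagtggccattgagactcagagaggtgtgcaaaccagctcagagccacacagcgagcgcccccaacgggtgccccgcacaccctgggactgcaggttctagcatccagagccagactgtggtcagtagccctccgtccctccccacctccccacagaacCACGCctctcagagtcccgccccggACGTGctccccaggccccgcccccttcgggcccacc
Pfkfb3: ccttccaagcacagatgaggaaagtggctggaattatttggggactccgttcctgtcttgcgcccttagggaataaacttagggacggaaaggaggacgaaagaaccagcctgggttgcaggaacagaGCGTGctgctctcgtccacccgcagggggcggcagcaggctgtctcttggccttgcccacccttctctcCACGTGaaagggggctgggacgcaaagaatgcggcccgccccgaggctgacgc
Ldha: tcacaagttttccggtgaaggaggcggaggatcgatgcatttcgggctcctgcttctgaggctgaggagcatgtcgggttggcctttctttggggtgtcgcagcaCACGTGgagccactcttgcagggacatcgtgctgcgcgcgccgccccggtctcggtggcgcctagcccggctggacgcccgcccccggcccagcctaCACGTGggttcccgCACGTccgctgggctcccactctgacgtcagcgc
Slc16a3: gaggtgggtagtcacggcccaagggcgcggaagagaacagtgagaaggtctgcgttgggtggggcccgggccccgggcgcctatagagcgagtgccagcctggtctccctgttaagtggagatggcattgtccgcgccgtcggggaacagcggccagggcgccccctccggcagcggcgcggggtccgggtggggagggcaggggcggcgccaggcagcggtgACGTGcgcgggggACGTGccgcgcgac
Bnip3: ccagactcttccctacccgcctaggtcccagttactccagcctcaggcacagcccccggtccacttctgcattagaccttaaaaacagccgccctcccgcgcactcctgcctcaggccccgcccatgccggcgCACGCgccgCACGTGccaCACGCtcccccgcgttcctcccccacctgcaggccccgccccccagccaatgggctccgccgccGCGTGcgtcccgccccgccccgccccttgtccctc
Eno2: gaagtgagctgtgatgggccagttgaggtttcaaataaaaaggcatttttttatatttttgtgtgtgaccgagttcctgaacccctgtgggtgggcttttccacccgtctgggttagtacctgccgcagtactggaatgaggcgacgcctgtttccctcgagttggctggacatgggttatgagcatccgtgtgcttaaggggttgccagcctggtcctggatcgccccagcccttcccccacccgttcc
Bnip3 and Ldha each show 5 cores in these bases, Pfkfb3 shows 3, and Slc2a1 and Slc16a3 show 2 each. Each CACGTG counts as 2 because it holds CACGT and ACGTG, which overlap.

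All values below are RMA values on the log2 scale, as deposited, so a difference of 1 is a change of 2-fold. Differences are given with their standard error (SE) from limma over all 12 arrays, and 0.05 was the limit on the adjusted p, taken over all 12394 genes, below which a gene counts as called. An exact permutation test of 2 against 2 cannot give a p below 0.333. The array medians lay between 6.92 and 6.96, and the correlation of the 2 arrays of a group over genes lay between 0.992 and 0.997. The 8 macrophage markers measured averaged 11.76 to 12.16 on every array, and none was dim in any group. Over the 12 arrays Mertk, Itgam and Fcgr1 ranged over 3.19, 1.84 and 1.60, and the others over 0.13 to 0.83. Without stimulus, with LPS and with both stimuli Mertk averaged 10.4, 8.7 and 7.4 in IL10-/- cells. In p50-/-IL10-/- cells it averaged 10.4, 10.0 and 9.0. With both stimuli Itgam averaged 10.5 and 9.5 in the 2 genotypes. Of the 8 neutrophil markers listed, 7 were measured, and their average was 8.89 to 9.12 on IL10-/- arrays and 8.24 to 8.43 on p50-/-IL10-/- arrays. These neutrophil markers thus differed between the genotypes under each stimulus, and their part in the genotype differences below was not tested. In whole cultures fewer cells of a type and less RNA per cell cannot be told apart.

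LPS moved these genes in both directions. In IL10-/- cells 10 of the 31 rose and 5 fell, where 7.76% of all genes rose and 17.1% fell. The share that fell there was near that of all genes. In p50-/-IL10-/- cells 7 rose and 13 fell, against 10.3% and 22.1% of all genes. The medians of the 31 were −0.10 and −0.14, beside −0.01 for all genes in each genotype. Slc2a1, Pfkp, Hif1a, Ddit4, P4ha1 and Ero1a rose in both genotypes, and Slc2a3, Tpi1, Pkm, Vegfa and Mxi1 fell in both. Hk2, Pfkl, Eno2 and Slc16a3 were the only 4 of the 31 whose LPS response differed between the genotypes in a test of that difference. Hk2 was higher, against 0.734% of all genes, and the other 3 lower, against 0.452%. Of these 4, only Pfkl and Eno2 were called in opposite directions in the genotypes.

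**Figure D1:**
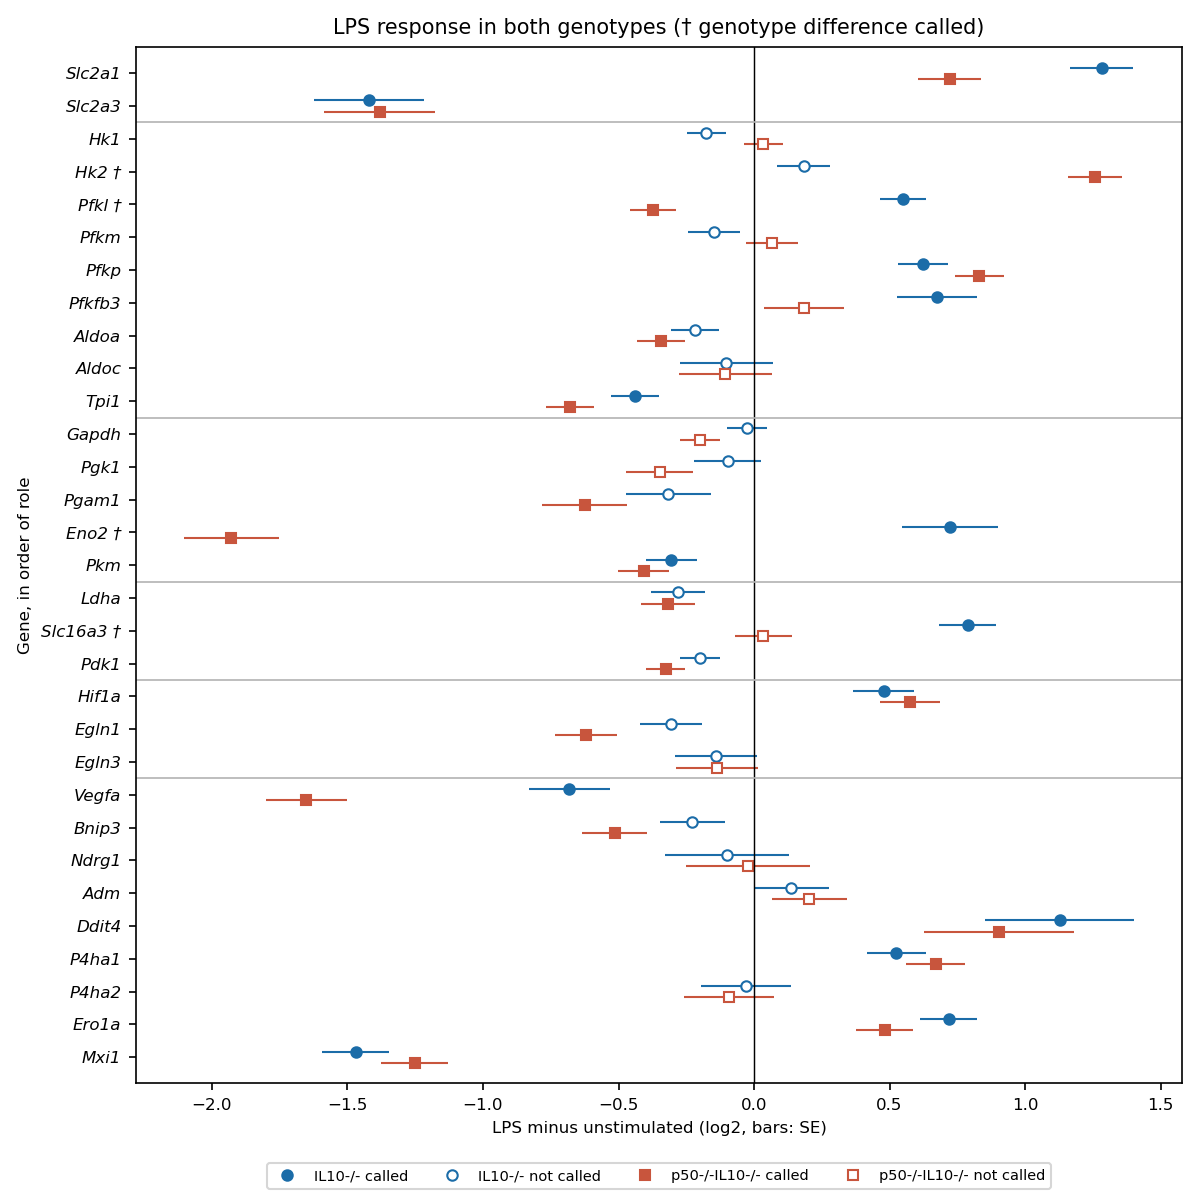
LPS response (LPS minus unstimulated, log2; bars are SE) of the 31 genes in IL10-/- cells (blue circles) and p50-/-IL10-/- cells (red squares), in order of role, with filled symbols for calls and a dagger for genes whose response differed between the genotypes. Eno2 lies at 0.72 in IL10-/- cells and at −1.93 in p50-/-IL10-/- cells, and Hk2 lies at 0.18 and 1.26.

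IL-10 added to LPS raised many of the 31 genes, and none passed the test as lower, though Eno2 did in IL10-/- cells without LPS array 1 (−0.91, limma's adjusted p = 0.018). Among IL10-/- cells 15 of the 31 were higher when IL-10 joined LPS than with LPS alone, where 3.35% of all genes were higher, and 0 were lower, where 2.82% of all genes were. The median of the 31 was 0.46, beside 0.01 for all genes. In p50-/-IL10-/- cells 5 were higher and 0 lower, against 3.7% and 2.87% of all genes, with a median of 0.17 beside 0.05. At an unadjusted p under 0.05 limma gave 19 higher and 1 lower in IL10-/- cells, and 10 higher and 3 lower in p50-/-IL10-/- cells. Fitting the 2 compared groups alone left 8 calls in IL10-/- cells. In p50-/-IL10-/- cells 3 calls were left without LPS array 1 and 1 without LPS+IL-10 array 2, while the mean of all probe sets of a gene gave 7 calls, adding Ldha and Egln1 (adjusted p = 0.0491 and 0.0201). The LPS response and the IL-10 effect share the LPS arrays, so an array that is low by chance under LPS lowers one and raises the other.

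The difference between 15 and 5 is not itself a test. When the IL-10 effect was compared between genotypes gene by gene, limma called 0 of the 31 higher and 0 lower, where it called 0.0968% and 0.0403% of all genes. At an unadjusted p under 0.05 there were 12 of the 31, with 1 higher and 11 lower in p50-/-IL10-/- cells, and the median difference was −0.24, beside 0.04 for all genes. Pfkfb3 had the smallest p, with −1.22 ± 0.21 (SE; adjusted p = 0.065), followed by Bnip3 with −0.91 ± 0.17 (adjusted p = 0.0998). Some other settings called 1 gene each for this difference: Pfkfb3 with a trended and robust prior (adjusted p = 0.0451), Egln3 with the mean of its probe sets (−1.31, adjusted p = 0.012) and in its other probe set alone (−1.72, adjusted p = 0.00298), and Bnip3 without IL10-/- LPS array 2 (−1.08, adjusted p = 0.0268).

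**Figure D2:**
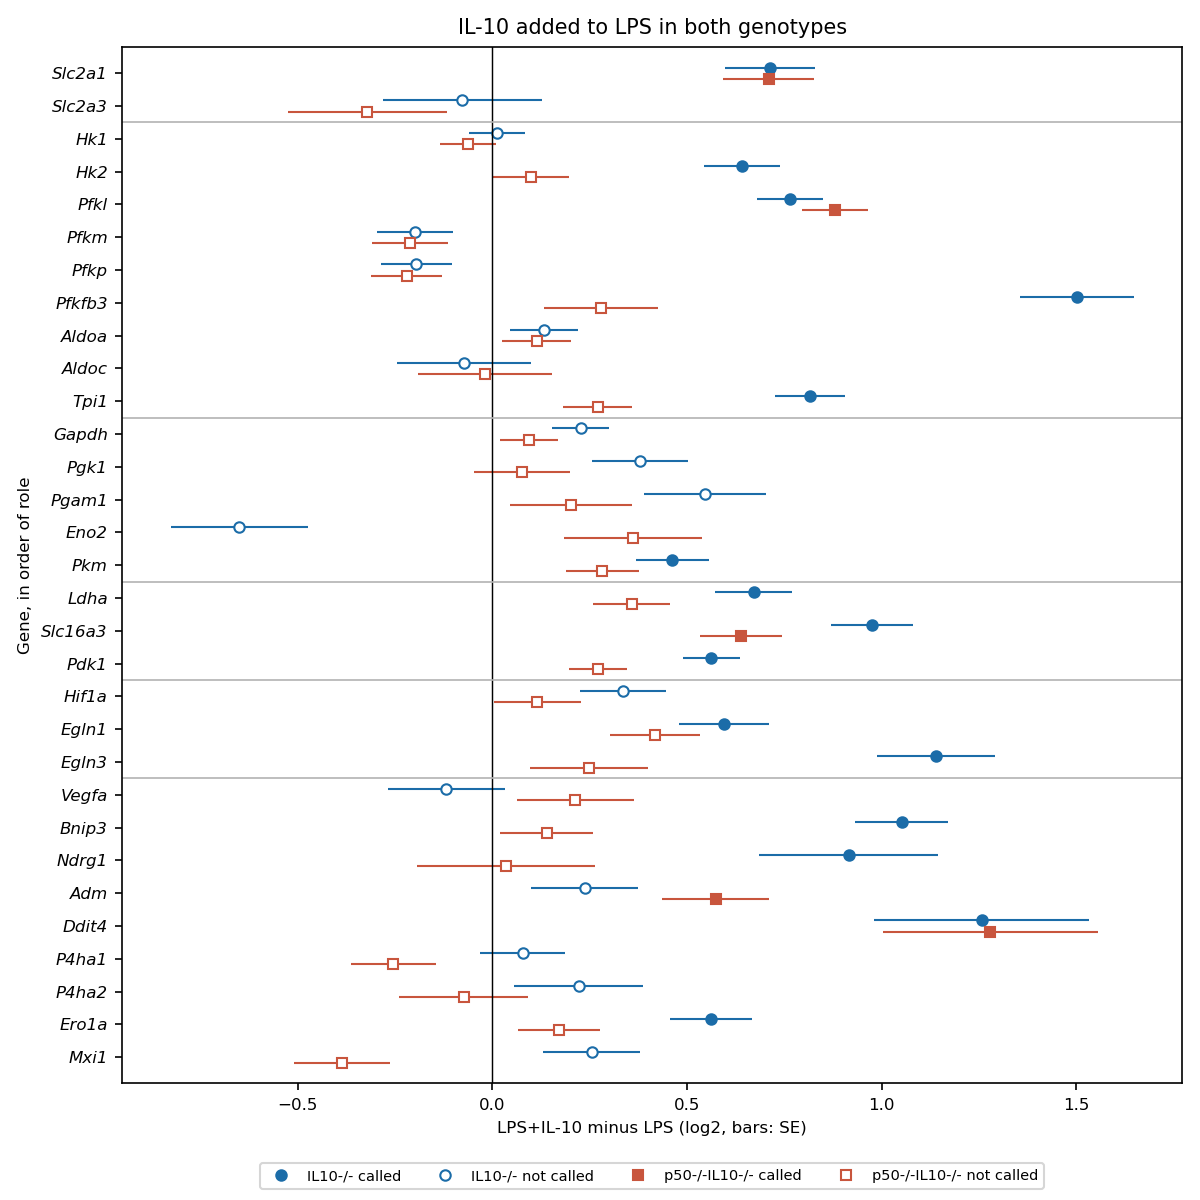
Effect of IL-10 (LPS+IL-10 minus LPS, log2; bars are SE) on the 31 genes in IL10-/- cells (blue circles) and p50-/-IL10-/- cells (red squares), in order of role, with filled symbols for calls. Pfkfb3 lies at 1.50 in IL10-/- cells and at 0.28 in p50-/-IL10-/- cells, while Slc2a1 lies at 0.71 in both.

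More of the 31 were called between the genotypes with both stimuli than without stimulus or with LPS alone. A change of the genotype difference from no stimulus to both stimuli was not tested. Against unstimulated cells of the same genotype, LPS with IL-10 raised 16 of the 31 genes and lowered 4 in IL10-/- cells, against 6.94% and 12.5% of all genes. In p50-/-IL10-/- cells it raised 11 and lowered 6, against 16.7% and 21.2%. In each genotype the share lowered was near that of all genes. The medians were 0.37 and −0.06, beside 0.00 and 0.05 for all genes. Between the genotypes, 0 of the 31 were higher and 1 was lower in unstimulated p50-/-IL10-/- cells, against 1.26% and 1.31% of all genes; limma gave 1 higher and 8 lower at an unadjusted p under 0.05. With LPS 3 were higher and 9 lower, against 5.66% and 6.72%. With LPS and IL-10 2 were higher, near the 7.58% of all genes, and 16 were lower, against 10.4%. The median there was −0.45, beside 0.04 for all genes. The 19 genes of uptake, glycolysis and lactate held 8 of these 16, and the 12 genes of the HIF system held the other 8. Under LPS with IL-10, 5 of the 7 neutrophil markers were lower in p50-/-IL10-/- cells (S100a9 by −1.08 ± 0.08 and Camp by −0.45 ± 0.11), against 6 of 7 without stimulus and 7 of 7 with LPS. The gap between the 3′ and 5′ control probe sets of Gapdh, a sign of RNA quality, was 0.42 and 0.43 on the unstimulated IL10-/- arrays, 0.09 and 0.26 on the IL10-/- arrays with both stimuli, and 0.12 and 0.25 on the unstimulated p50-/-IL10-/- arrays. It thus moved with the IL10-/- comparison of both stimuli against none and with the unstimulated genotype comparison, and its part in them was not tested. These comparisons share arrays with each other and with those within a genotype.

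**Figure D3:**
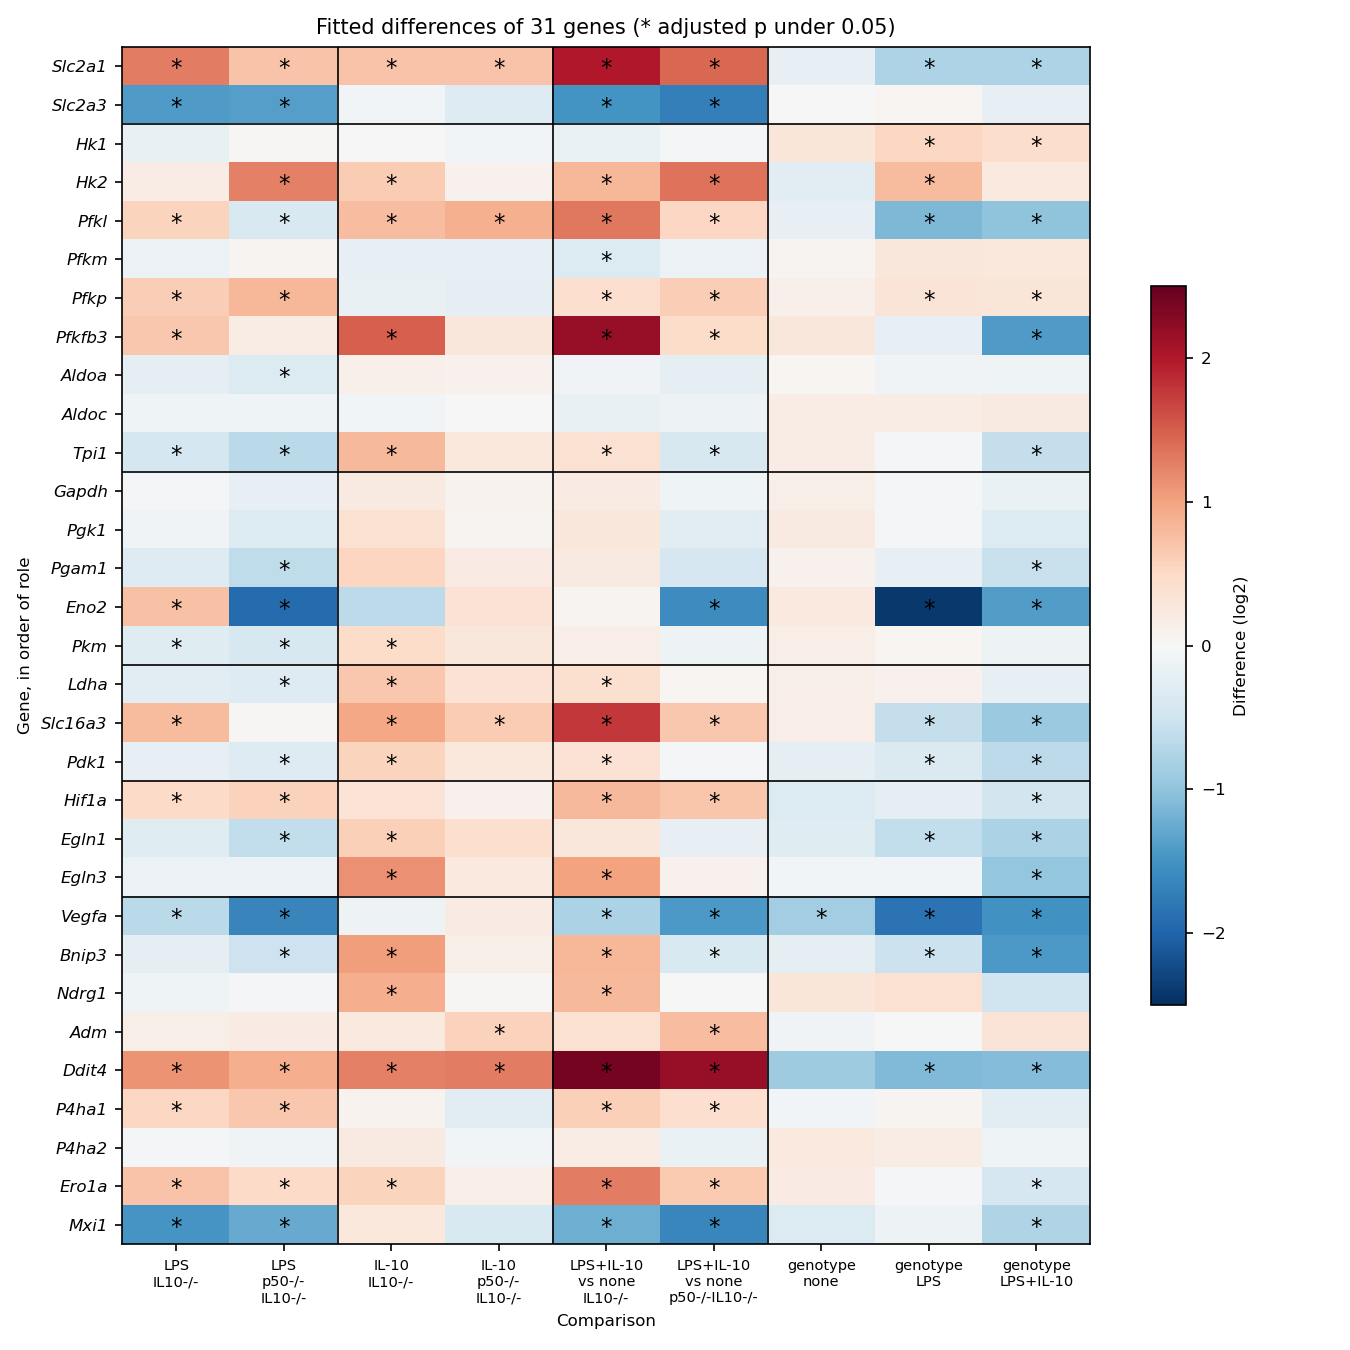
Fitted differences (log2, colour) of the 31 genes, in order of role from glucose uptake at the top to HIF targets at the bottom, for the 9 comparisons between a pair of groups, with an asterisk where the adjusted p was under 0.05. The first 6 columns are LPS against no stimulus, LPS+IL-10 against LPS and LPS+IL-10 against no stimulus in each genotype, and the last 3 are p50-/-IL10-/- minus IL10-/- for each stimulus. The last column holds 16 lower genes and the column of unstimulated cells 1.

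The glucose carriers went opposite ways. Slc2a1 codes for GLUT1, the main carrier of activated macrophages. On IL10-/- arrays it read 9.07 and 8.99 without stimulus, then 10.27 and 10.36 under LPS, and 11.04 and 11.02 once IL-10 was added. The p50-/-IL10-/- arrays gave 8.75 and 8.91, then 9.73 and 9.36, then 10.20 and 10.32. The 3 stimuli thus formed separate steps in each genotype, and under either stimulation both p50-/-IL10-/- arrays lay below both IL10-/- arrays. LPS raised Slc2a1 by 1.28 ± 0.12 in IL10-/- cells (2.43-fold; adjusted p = 2.3e-05) and by 0.72 ± 0.12 in p50-/-IL10-/- cells (adjusted p = 0.00072), and IL-10 added 0.71 ± 0.12 in both (adjusted p = 0.0042 and 0.0055). In p50-/-IL10-/- cells the call for IL-10 ended without LPS+IL-10 array 2 (adjusted p = 0.0608). The genotype difference was −0.77 under LPS and −0.77 under both stimuli, each called, and the genotype difference of the LPS response, −0.56 ± 0.16, was not (adjusted p = 0.19).

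Slc2a3 codes for GLUT3, a carrier of high affinity. Its values were 8.44 and 8.72 without stimulus, 6.98 and 7.33 with LPS, and 7.0 and 7.16 with both stimuli on IL10-/- arrays, and 8.62 and 8.55, 6.98 and 7.42, and 7.18 and 6.59 on p50-/-IL10-/- arrays. All stimulated arrays lay below all unstimulated ones, and the genotypes overlapped under LPS. The fall with LPS was −1.42 ± 0.20 (adjusted p = 0.0005) and −1.38 ± 0.20 (adjusted p = 0.0004), and no IL-10 effect or genotype difference was called. The fall averaged over its 4 probe sets was smaller, −0.61 and −0.67, because the dimmest pair of them changed by less than 0.1 in size with LPS.

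Of the hexokinases, Hk2 is the form that activated cells induce and Hk1 the form that most cells keep at a steady level. Hk2 read 10.57 and 10.31, 10.54 and 10.71, and 11.30 and 11.23 on IL10-/- arrays, in the order no stimulus, LPS, LPS with IL-10. On p50-/-IL10-/- arrays it read 10.11 and 10.19, 11.38 and 11.43, and 11.46 and 11.54. On IL10-/- arrays LPS alone thus gave values close to the unstimulated ones and IL-10 gave higher ones, while on p50-/-IL10-/- arrays the values were already higher with LPS alone. The LPS response was 0.18 ± 0.10 in IL10-/- cells (adjusted p = 0.22) and 1.26 ± 0.10 in p50-/-IL10-/- cells (2.39-fold; adjusted p = 5.6e-06), and the difference between them was 1.08 ± 0.14 (adjusted p = 0.0084). IL-10 added 0.64 ± 0.10 in IL10-/- cells (adjusted p = 0.003) and 0.10 ± 0.10 in p50-/-IL10-/- cells (adjusted p = 0.58), which differed by −0.54 ± 0.14 (adjusted p = 0.23). With both stimuli the genotypes differed by 0.24 ± 0.10 (adjusted p = 0.11). Hk1 lay at 9.31 and 9.33, 9.12 and 9.17, and 9.14 and 9.18 on IL10-/- arrays, and at 9.59 and 9.67, 9.64 and 9.68, and 9.64 and 9.56 on p50-/-IL10-/- arrays. Its levels under the 3 stimuli lay close together and those of the genotypes did not overlap: p50-/-IL10-/- cells were higher by 0.52 ± 0.07 with LPS (adjusted p = 0.0013) and by 0.44 ± 0.07 with both stimuli (adjusted p = 0.0025). Without stimulus the difference was 0.31 ± 0.07 (adjusted p = 0.053), and it was called when its 2 probe sets were averaged (0.44, adjusted p = 0.0212).

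The commitment step is shared by 3 subunits of phosphofructokinase, and Pfkfb3 makes fructose-2,6-bisphosphate, their strongest activator. Pfkl, the liver subunit, read 9.44 and 9.29, 9.87 and 9.96, and 10.63 and 10.74 on IL10-/- arrays. Its p50-/-IL10-/- values were 9.21 and 9.14, 8.75 and 8.85, and 9.64 and 9.71. It climbed in 2 steps in IL10-/- cells, whereas in p50-/-IL10-/- cells it first went down and then up, so that both stimulated pairs of arrays lay about 1 log2 unit below those of IL10-/- cells. The LPS response was 0.55 ± 0.08 (adjusted p = 0.00081) against −0.37 ± 0.08 (adjusted p = 0.0061), a difference of −0.92 ± 0.12 (adjusted p = 0.0084). Without p50-/-IL10-/- LPS array 1 the fall was not called (adjusted p = 0.0544), nor was it in its other probe set (−0.23, adjusted p = 0.0778). IL-10 raised Pfkl by 0.76 ± 0.08 in IL10-/- cells (adjusted p = 0.00044) and by 0.88 ± 0.08 in p50-/-IL10-/- cells (adjusted p = 0.00032), the one IL-10 call in p50-/-IL10-/- cells that was kept with any of the 4 compared arrays left out. The genotypes differed by −1.12 ± 0.08 with LPS and by −1.0 ± 0.08 with both stimuli (adjusted p = 3.4e-05 and 5.4e-05). With its other probe set the IL-10 effect in IL10-/- cells was 0.47 and the genotype difference with both stimuli −0.59, each still called.

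Pfkp, the platelet subunit, gave 9.08 and 9.21, 9.71 and 9.83, and 9.55 and 9.60 on IL10-/- arrays and 9.16 and 9.38, 10.13 and 10.07, and 9.91 and 9.85 on p50-/-IL10-/- arrays. LPS set all stimulated arrays above the unstimulated ones, by 0.62 ± 0.09 (adjusted p = 0.00059) and 0.83 ± 0.09 (adjusted p = 5.4e-05). IL-10 gave −0.20 ± 0.09 and −0.22 ± 0.09, neither called. The genotype differences of 0.33 with LPS and 0.31 with both stimuli passed the test (adjusted p = 0.0396 and 0.0424), and each ended in all 4 fits without 1 of the compared arrays (highest adjusted p 0.194 and 0.177). The dimmer probe set of Pfkp gave 0.66 for LPS in IL10-/- cells with a larger SE and was not called (adjusted p = 0.121). Pfkm, the muscle subunit, lay between 7.11 and 7.70 on the 12 arrays. Its only call was −0.35 ± 0.10 for LPS and IL-10 against no stimulus in IL10-/- cells (adjusted p = 0.0286), from 7.39 and 7.60 to 7.11 and 7.20, and this ended in 3 of 4 fits without 1 array (highest adjusted p 0.239, without unstimulated array 2).

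Pfkfb3 showed the largest IL-10 effect of the 31. It read 8.79 and 8.36, 9.38 and 9.12, and 10.79 and 10.71 on IL10-/- arrays. The p50-/-IL10-/- arrays gave 8.79 and 8.95, 9.19 and 8.92, and 9.33 and 9.34. With LPS and IL-10 the IL10-/- arrays stood more than 1 log2 unit above all others, and the remaining 10 arrays covered 8.36 to 9.38. IL-10 raised it by 1.50 ± 0.15 in IL10-/- cells (2.83-fold; adjusted p = 0.00018), against 0.28 ± 0.15 in p50-/-IL10-/- cells (adjusted p = 0.28), and with both stimuli the genotypes differed by −1.42 ± 0.15 (adjusted p = 0.00018). The LPS response of 0.67 ± 0.15 in IL10-/- cells (adjusted p = 0.0062) ended without unstimulated array 2 (adjusted p = 0.0604) and without LPS array 1. The other, dimmer probe set of Pfkfb3 gave 0.47 for IL-10 in IL10-/- cells (adjusted p = 0.271), 0.11 for LPS (adjusted p = 0.779) and −0.25 between genotypes with both stimuli (adjusted p = 0.428), so these calls rest on 1 probe set.

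Of the enzymes that cut the sugar and even out its products, aldolase and triose phosphate isomerase, only the second was called for IL-10. Tpi1 read 11.11 and 11.11, 10.69 and 10.65, and 11.47 and 11.50 on IL10-/- arrays and 11.21 and 11.37, 10.54 and 10.68, and 10.97 and 10.79 on p50-/-IL10-/- arrays. LPS lowered it in both, by −0.44 ± 0.09 (adjusted p = 0.0042) and −0.68 ± 0.09 (adjusted p = 0.00018). IL-10 brought it above the unstimulated level in IL10-/- cells, with 0.82 ± 0.09 (adjusted p = 0.00039). In p50-/-IL10-/- cells the 0.27 ± 0.09 was not called (adjusted p = 0.1), and the level stayed below the unstimulated one. The next probe set of Tpi1 gave 0.31 there, which was called (adjusted p = 0.0463). Its dimmest probe set gave 0.11, which was not (adjusted p = 0.7). The genotype difference with both stimuli was −0.60 ± 0.09 (adjusted p = 0.0015). The excess over unstimulated IL10-/- cells, 0.38, ended in all 4 fits without 1 array (highest adjusted p 0.0701). Aldoa ranged from 12.41 to 12.89 over the 12 arrays and Aldoc from 7.21 to 7.83. Aldoa fell with LPS in p50-/-IL10-/- cells by −0.34 ± 0.09 (adjusted p = 0.0121), a call that ended without p50-/-IL10-/- LPS array 1 (adjusted p = 0.112) or unstimulated array 2, and Aldoc had no call in any comparison.

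Along the payoff steps the abundant enzymes moved little and mostly together. Gapdh, which oxidises the triose and was read here by its 3′ control probe set, lay between 12.59 and 12.94, and Pgk1, which makes the first ATP, between 12.11 and 12.72, and neither had a call in any of the 11 comparisons in these probe sets. The next probe set of Pgk1 was called for IL-10 in IL10-/- cells (0.47, adjusted p = 0.0181) and between the genotypes with both stimuli (−0.39, adjusted p = 0.0234). The middle probe set of Gapdh was called for IL-10 in IL10-/- cells (0.31, adjusted p = 0.0303). The fall of Pgk1 with LPS in p50-/-IL10-/- cells, −0.35 (adjusted p = 0.0517), was called with a trended and robust prior (adjusted p = 0.0354), with genes dim in every group left out (adjusted p = 0.0469), and without unstimulated array 1 or LPS array 2. Over all 31 genes and 11 comparisons, 15 pairs of gene and comparison, in 9 genes, were called in another probe set and not in the brightest. Pgam1, phosphoglycerate mutase, fell with LPS in p50-/-IL10-/- cells by −0.63 ± 0.16 (adjusted p = 0.0102) and was lower there with both stimuli by −0.55 ± 0.16 (adjusted p = 0.0336). The first call ended without p50-/-IL10-/- LPS array 1 (adjusted p = 0.0891) or unstimulated array 2, and the second without LPS+IL-10 array 2 of either genotype (−0.37, adjusted p = 0.223 for p50-/-IL10-/-). Pkm, pyruvate kinase, fell with LPS by −0.31 ± 0.09 and −0.41 ± 0.09 and rose with IL-10 in IL10-/- cells by 0.46 ± 0.09 (adjusted p = 0.0366, 0.00667 and 0.0146). The first of these ended in all 4 fits without 1 array (highest adjusted p 0.182), the second without p50-/-IL10-/- LPS array 1 (−0.27, adjusted p = 0.0657) or unstimulated array 2, and the third without LPS+IL-10 array 2 (adjusted p = 0.116) or LPS array 1. For IL-10 in IL10-/- cells Gapdh, Pgk1, Pgam1 and Pkm gave 0.23, 0.38, 0.55 and 0.46, and in p50-/-IL10-/- cells 0.09, 0.08, 0.20 and 0.28.

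Eno2, the enolase of neurons, which HIF also induces elsewhere, was the exception among the payoff enzymes. On IL10-/- arrays it read 6.76 and 6.89, 7.29 and 7.81, and 6.82 and 6.98 in the same order of stimuli. On p50-/-IL10-/- arrays it read 6.87 and 7.27, 5.10 and 5.18, and 5.65 and 5.36. The unstimulated arrays of the genotypes overlapped. The IL10-/- LPS arrays lay above them, the IL10-/- arrays with both stimuli lay among them, and all 4 stimulated p50-/-IL10-/- arrays lay below them. LPS changed it by 0.72 ± 0.18 in IL10-/- cells (adjusted p = 0.0118) and by −1.93 ± 0.18 in p50-/-IL10-/- cells (3.81-fold lower; adjusted p = 1.6e-05), which differed by −2.65 ± 0.25 (adjusted p = 0.0015), the largest genotype difference of the LPS response among the 31. The rise in IL10-/- cells was 0.46 and not called without LPS array 2 (adjusted p = 0.0706), and it ended without unstimulated array 1 too. The stimulated p50-/-IL10-/- values lie near or under 5.60, the highest lower quartile of any array, a range in which RMA compresses changes, so the size of the fall is uncertain. IL-10 gave −0.65 ± 0.18 in IL10-/- cells (adjusted p = 0.059) and 0.36 ± 0.18 in p50-/-IL10-/- cells (adjusted p = 0.25), the only member with an unadjusted p under 0.05 for a higher IL-10 effect without p50 (1.01 ± 0.25, adjusted p = 0.21).

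The genes of lactate and pyruvate fate all rose with IL-10 in IL10-/- cells. Slc16a3 codes for MCT4, which exports lactate. Its IL10-/- values were 7.69 and 7.57, 8.48 and 8.36, and 9.37 and 9.41, and its p50-/-IL10-/- values were 7.82 and 7.78, 7.95 and 7.71, and 8.35 and 8.58. LPS lifted both IL10-/- arrays above all unstimulated ones while of the p50-/-IL10-/- arrays 1 lay just above them and 1 among them, and IL-10 lifted the arrays of both genotypes. The LPS response was 0.79 ± 0.11 (adjusted p = 0.00032) against 0.03 ± 0.11 (adjusted p = 0.85), which differed by −0.75 ± 0.15 (adjusted p = 0.0431). That difference was not called in any of the 8 fits without 1 array (highest adjusted p 0.169, without IL10-/- unstimulated array 2), when the 4 groups were fitted alone (adjusted p = 0.0803) or when each probe set was tested (adjusted p = 0.057). IL-10 added 0.97 ± 0.11 in IL10-/- cells (adjusted p = 0.00037) and 0.64 ± 0.11 in p50-/-IL10-/- cells (adjusted p = 0.0057, and 0.0639 without LPS+IL-10 array 2). With LPS the genotypes differed by −0.59 ± 0.11 (adjusted p = 0.0053) and with both stimuli by −0.92 ± 0.11 (adjusted p = 0.00034).

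Ldha, lactate dehydrogenase A, read 11.58 and 11.72, 11.24 and 11.50, and 12.04 and 12.04 on IL10-/- arrays and 11.72 and 11.88, 11.49 and 11.48, and 11.85 and 11.83 on p50-/-IL10-/- arrays. The arrays with IL-10 lay above those with LPS alone in both genotypes. IL-10 added 0.67 ± 0.10 in IL10-/- cells (adjusted p = 0.0023), and 0.36 ± 0.10 in p50-/-IL10-/- cells missed the threshold (adjusted p = 0.057). The fall of Ldha with LPS in p50-/-IL10-/- cells, −0.32, ended in 3 of 4 fits without 1 array (highest adjusted p 0.207, without unstimulated array 2). Pdk1, the kinase that keeps pyruvate out of the mitochondrial cycle, rose with IL-10 by 0.56 ± 0.07 in IL10-/- cells (adjusted p = 0.0011) and by 0.27 ± 0.07 in p50-/-IL10-/- cells, not called (adjusted p = 0.054). The dimmer probe set of Pdk1 gave 0.93 (adjusted p = 0.0452) and −0.39 (adjusted p = 0.354), so the 2 probe sets disagree on direction in p50-/-IL10-/- cells. For both stimuli against none in those cells the dimmer one gave −0.86 (adjusted p = 0.0164), beside −0.06 in the brighter one. With both stimuli the brighter one read 8.87 and 8.79 in IL10-/- cells and 8.16 and 8.20 in p50-/-IL10-/- cells. The genotypes thus differed by −0.65 ± 0.07 (adjusted p = 0.00031), and the dimmer probe set gave −1.91. Without IL-10 the difference was −0.36 ± 0.07 (adjusted p = 0.00939), and it ended without p50-/-IL10-/- LPS array 1 (adjusted p = 0.0713) or IL10-/- LPS array 2.

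Hif1a, the regulated subunit of HIF-1, rose with LPS in both genotypes. Its RNA read 10.92 and 10.66, 11.26 and 11.29, and 11.53 and 11.68 on IL10-/- arrays and 10.39 and 10.54, 11.10 and 10.98, and 11.26 and 11.05 on p50-/-IL10-/- arrays. Each IL10-/- pair lay above the p50-/-IL10-/- pair of the same stimulus. LPS gave 0.48 ± 0.11 (adjusted p = 0.0093) and 0.58 ± 0.11 (adjusted p = 0.0023), of which the first ended without unstimulated array 2 (adjusted p = 0.0963). IL-10 gave 0.34 ± 0.11 and 0.12 ± 0.11 (adjusted p = 0.13 and 0.57), and in the next probe set of Hif1a 0.60 in IL10-/- cells, which was called (adjusted p = 0.00256). The genotype difference passed the test only with both stimuli, −0.45 ± 0.11 (adjusted p = 0.019), and ended there without LPS+IL-10 array 2 of either genotype (highest adjusted p 0.137). That probe set gave larger genotype differences under each stimulus, −0.81, −0.77 and −1.08, each called (adjusted p = 0.000952, 0.000441 and 5.6e-05). The dimmest pair of Hif1a probe sets gave −0.26 and −0.10 without stimulus, 0.17 and 0.11 with LPS, and −0.58 and −0.07 with both stimuli. None of these was called. Protein, which the hydroxylases control, was not measured.

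The HIF prolyl hydroxylases Egln1 and Egln3 are themselves HIF targets, Egln3 above all. Egln3 read 6.47 and 6.44, 6.22 and 6.40, and 7.31 and 7.59 on IL10-/- arrays and 6.50 and 6.25, 6.00 and 6.47, and 6.47 and 6.50 on p50-/-IL10-/- arrays. The IL10-/- arrays with IL-10 stood alone, and the other 10 arrays lay between 6.00 and 6.50. IL-10 raised Egln3 by 1.14 ± 0.15 in IL10-/- cells (2.2-fold; adjusted p = 0.0012) and gave 0.25 ± 0.15 in p50-/-IL10-/- cells (adjusted p = 0.35), and the genotypes differed by −0.97 ± 0.15 with both stimuli (adjusted p = 0.002). The other probe set of Egln3 gave 1.86 for IL-10 in IL10-/- cells and −1.81 between the genotypes (adjusted p = 1.3e-05 for each), and −1.72 for the genotype difference of the IL-10 effect (adjusted p = 0.00298). Egln1, the main oxygen sensor, rose with IL-10 in IL10-/- cells by 0.60 ± 0.12 (adjusted p = 0.0114, called in only 1 of 4 fits without 1 array, highest adjusted p 0.083). Its IL-10 effect in p50-/-IL10-/- cells was 0.42 ± 0.12 (adjusted p = 0.058), and it was called in the next probe set (0.39, adjusted p = 0.0172) and with the mean of its probe sets (adjusted p = 0.0201). Egln1 fell with LPS in p50-/-IL10-/- cells by −0.62 ± 0.12 (adjusted p = 0.0018). With both stimuli it read 9.21 and 9.24 in IL10-/- cells and 8.31 and 8.53 in p50-/-IL10-/- cells, so that the genotypes differed by −0.80 ± 0.12 (adjusted p = 0.0013; −0.41 in its next probe set, also called).

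**Figure D4:**
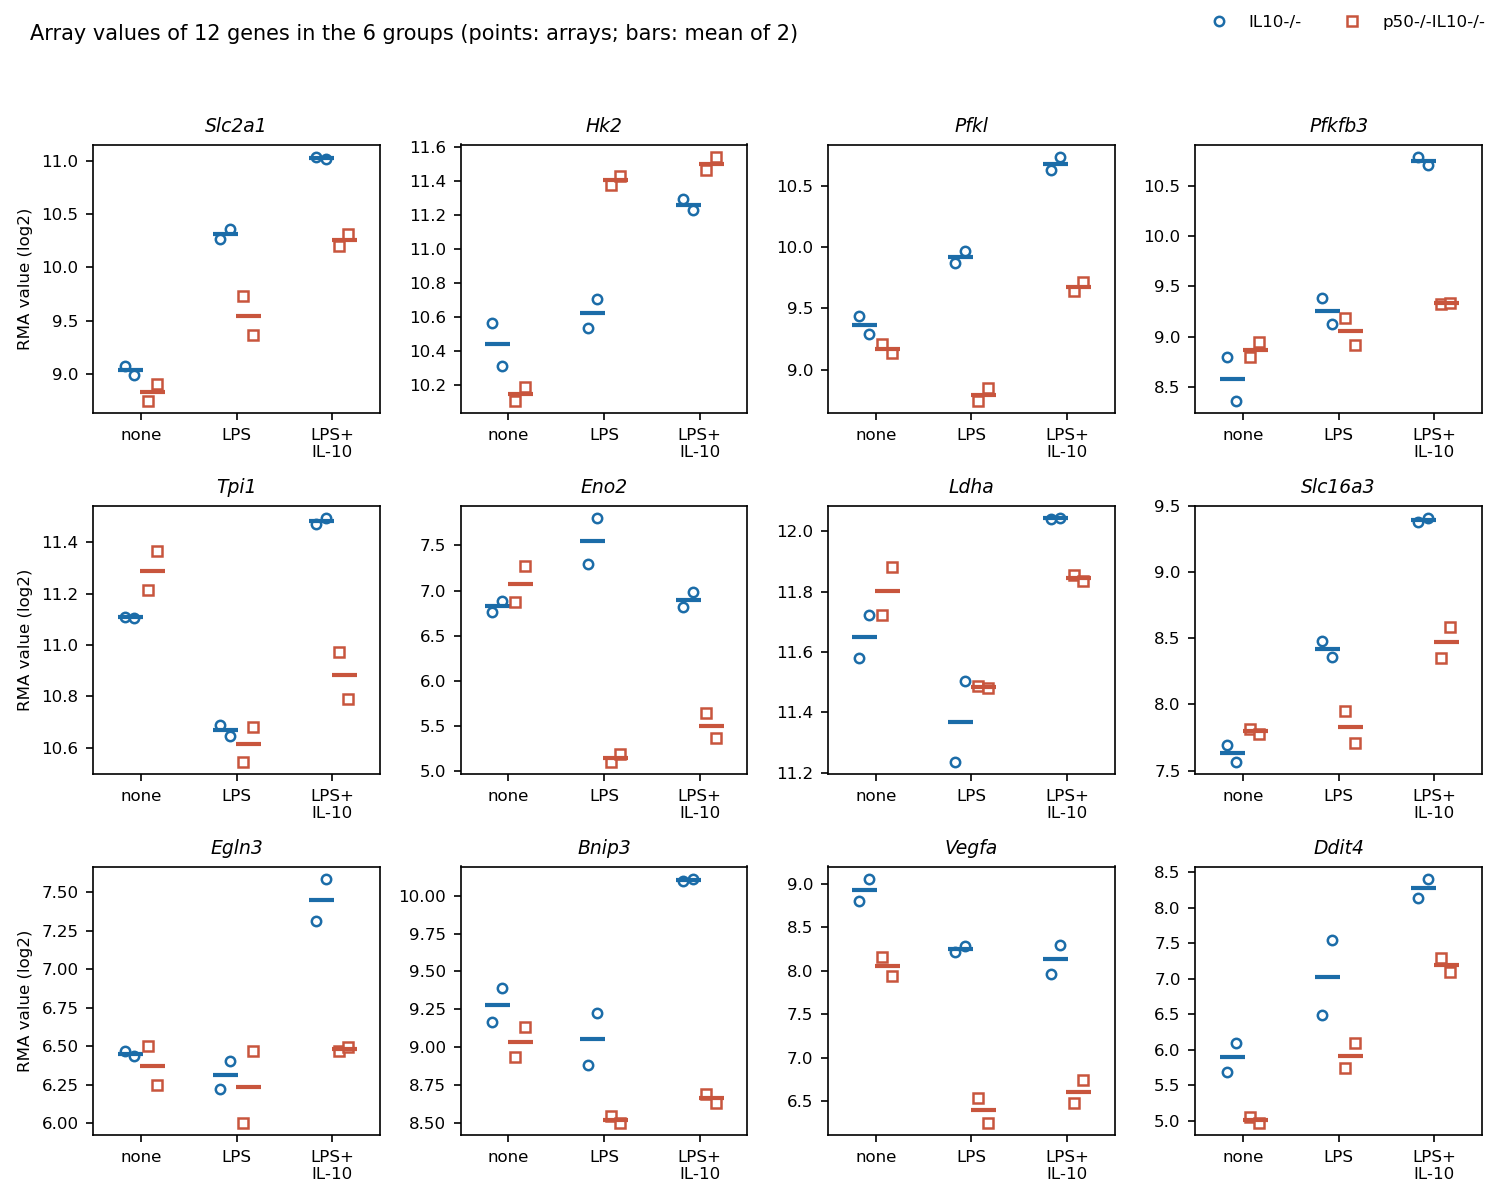
RMA values (log2) of 12 of the genes without stimulus, under LPS and under LPS+IL-10; blue circles are IL10-/- arrays, red squares p50-/-IL10-/- arrays, and bars the mean of the 2 arrays of a group, with a scale of its own in each panel. Pfkfb3, Egln3 and Bnip3 stand apart under LPS+IL-10 in IL10-/- cells, and Eno2 and Vegfa are lowest in stimulated p50-/-IL10-/- cells.

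Of the 9 measured HIF targets outside glycolysis, Bnip3, Ndrg1, Ddit4 and Ero1a rose with IL-10 in IL10-/- cells, and Adm and Ddit4 did in p50-/-IL10-/- cells. Bnip3 codes for a receptor for the removal of mitochondria. Its IL10-/- values were 9.17 and 9.39, 8.88 and 9.22, and 10.10 and 10.11, and its p50-/-IL10-/- values were 8.94 and 9.13, 8.54 and 8.50, and 8.69 and 8.63. The IL10-/- arrays with IL-10 lay above every other array, and in p50-/-IL10-/- cells both stimulated pairs lay below the unstimulated pair. IL-10 gave 1.05 ± 0.12 in IL10-/- cells (2.07-fold; adjusted p = 0.00052) against 0.14 ± 0.12 in p50-/-IL10-/- cells (adjusted p = 0.52). With both stimuli the genotypes differed by −1.44 ± 0.12 (2.72-fold lower; adjusted p = 5.2e-05). With LPS alone they differed by −0.53 ± 0.12 (adjusted p = 0.0161), which ended in 3 of 4 fits without 1 array (highest adjusted p 0.101, without IL10-/- LPS array 2). The fall of Bnip3 with LPS in p50-/-IL10-/- cells, −0.51 (adjusted p = 0.0071), ended without unstimulated array 2 (adjusted p = 0.0722).

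Ddit4, which restrains mTORC1 when oxygen or energy is short, rose at each stimulus in both genotypes. It read 5.69 and 6.09, 6.49 and 7.55, and 8.14 and 8.41 on IL10-/- arrays and 5.05 and 4.97, 5.74 and 6.09, and 7.29 and 7.10 on p50-/-IL10-/- arrays. The order of the stimuli was the same in both genotypes, with each p50-/-IL10-/- pair below the IL10-/- pair, and the IL10-/- LPS arrays were more than 1 log2 unit apart. Over no stimulus LPS with IL-10 gave 2.38 ± 0.28 and 2.18 ± 0.28 (5.22-fold and 4.54-fold; adjusted p = 0.00016 and 0.00017), the largest rises of the 31 in this comparison. The unstimulated p50-/-IL10-/- level was dim, so that rise may be understated. The separate steps were less certain. LPS gave 1.13 and 0.90 (adjusted p = 0.0121 and 0.0284) and IL-10 gave 1.26 and 1.28 (adjusted p = 0.0217 and 0.0232), and each ended in 1, 3, 3 and 4 of 4 fits without 1 array (highest adjusted p 0.0879, 0.163, 0.148 and 0.156). In IL10-/- cells the LPS step was 0.60 without LPS array 2 and the IL-10 step was 0.73 without LPS array 1. The genotype differences of −1.10 with LPS and −1.08 with both stimuli (adjusted p = 0.0259 and 0.0227) were each lost in 3 of 4 fits of that kind (adjusted p up to 0.173 and 0.139), and the first was −0.58 without IL10-/- LPS array 2.

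Vegfa, the growth factor that HIF induces for new vessels, fell with LPS, as Mxi1 did, while Ddit4, P4ha1 and Ero1a rose. On IL10-/- arrays it read 8.80 and 9.06, 8.21 and 8.28, and 7.97 and 8.29. On p50-/-IL10-/- arrays it read 8.16 and 7.94, 6.54 and 6.25, and 6.48 and 6.75. Both genotypes were lower with LPS, no IL-10 effect was called, and p50-/-IL10-/- cells were lower under each stimulus. LPS gave −0.68 ± 0.15 (adjusted p = 0.0069) and −1.65 ± 0.15 (3.14-fold lower; adjusted p = 1.5e-05), a difference that missed the threshold (−0.97 ± 0.21, adjusted p = 0.068). The genotypes differed by −0.88 ± 0.15 without stimulus (adjusted p = 0.0117), the only call of the 31 in that comparison in the brightest probe sets, and by −1.85 ± 0.15 with LPS and −1.52 ± 0.15 with both stimuli (adjusted p = 5.9e-05 and 0.00014). The unstimulated call ended without p50-/-IL10-/- array 2 (adjusted p = 0.127) or IL10-/- array 2, and the LPS call in IL10-/- cells without unstimulated array 2 (adjusted p = 0.0678). The other probe set of Vegfa, nearly as bright, gave −0.28 and −0.24 for LPS and −0.36, −0.31 and −0.25 between genotypes, none of them called, so the probe sets of Vegfa disagree on every one of these calls.

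Among the rest, Mxi1, a partner of Max that opposes Myc, fell most. It read 9.87 and 10.18, 8.48 and 8.63, and 8.75 and 8.88 on IL10-/- arrays and 9.84 and 9.54, 8.48 and 8.40, and 8.03 and 8.08 on p50-/-IL10-/- arrays. All stimulated arrays lay below all unstimulated ones, and with both stimuli the genotypes separated. LPS gave −1.47 ± 0.12 and −1.25 ± 0.12 (adjusted p = 1.4e-05 and 2.5e-05), and the genotypes differed by −0.76 ± 0.12 with both stimuli (adjusted p = 0.0025). Its other probe set gave −0.60 and −0.52 for LPS and −0.10 between genotypes, none called (adjusted p = 0.0609, 0.0806 and 0.778). Ero1a, an oxidase that forms disulfide bonds, rose with LPS by 0.72 ± 0.11 and 0.48 ± 0.11 (adjusted p = 0.00059 and 0.005) and with IL-10 in IL10-/- cells by 0.56 ± 0.11 (adjusted p = 0.0098, ending without LPS array 1 or without LPS+IL-10 array 2, where it was 0.0842). P4ha1, a prolyl hydroxylase of collagen, rose with LPS by 0.53 ± 0.11 and 0.67 ± 0.11 (adjusted p = 0.0049 and 0.00077; not called in its dimmer probe set, with 0.62 and 0.79), and P4ha2 had no call.

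Adm, which codes for the vessel-widening peptide adrenomedullin, read 5.41 to 6.02 on 10 of the 12 arrays and 6.14 and 6.54 in p50-/-IL10-/- cells with both stimuli. The IL-10 effect there was 0.57 ± 0.14 (adjusted p = 0.0367), from 5.72 and 5.80 with LPS. It ended in 3 of 4 fits without 1 array and was 0.38 without LPS+IL-10 array 2 (adjusted p = 0.222), and the unstimulated level was dim. Ndrg1, a stress gene of many tissues, read 8.57 and 9.24 under LPS alone in IL10-/- cells and 9.78 and 9.86 once IL-10 was added, a rise of 0.92 ± 0.23 (adjusted p = 0.0411). That call ended in 3 of 4 fits, and the rise was 0.58 without LPS array 1. The other probe sets of Ndrg1 gave 0.97, 1.08, 0.68 and 1.04, all called but the 1.08 (adjusted p = 0.0667). Between the genotypes with LPS the dimmest pair of them gave 0.46 and 0.85, each called (adjusted p = 0.0405 and 0.0281). The brighter ones gave 0.38, 0.46 and 0.41, not called.

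A further 81 genes of the same pathways were measured as a wider setting: 25 other glycolysis isoforms and branches, 15 of the pentose phosphate pathway and pyruvate entry, 11 other HIF pathway factors and 30 other HIF targets. With IL-10 in IL10-/- cells 9 of the 81 rose (11.1%, beside 3.35% of all genes) and 1 fell (1.23% beside 2.82%). In p50-/-IL10-/- cells 4 rose (4.94% beside 3.7%, near the share of all genes) and 5 fell (6.17% beside 2.87%). Among the other glycolysis genes Slc16a1, a lactate carrier (0.66), Gys1, glycogen synthase (0.58), and Pgm1, a phosphoglucomutase (0.36), rose with IL-10 in IL10-/- cells, with adjusted p of 0.0076, 0.0037 and 0.027. Of these 25 genes 0 rose and 3 fell with IL-10 in p50-/-IL10-/- cells: Minpp1, an inositol phosphate phosphatase (−0.85), Slc16a7, a monocarboxylate carrier (−0.45), and Gbe1, the glycogen branching enzyme, which is dim there (−0.41), with adjusted p of 0.0318, 0.0442 and 0.0375. None of the 15 genes of the pentose phosphate pathway and pyruvate entry was called for IL-10 in IL10-/- cells. In p50-/-IL10-/- cells Rpe, an epimerase, was the only one called, and it fell (−0.40, adjusted p = 0.02). Of the HIF pathway factors Cited2, which competes with HIF-1α for its coactivators, rose with LPS by 1.31 and 2.04 in IL10-/- and p50-/-IL10-/- cells and fell with IL-10 by −1.57 and −1.29 (adjusted p = 0.00063 and 0.0028 for IL-10). Of the other HIF targets Cp, ceruloplasmin, rose with IL-10 by 1.37 and 1.89 (adjusted p = 0.023 and 0.0053), Kdm3a, a histone demethylase, by 0.58 and 0.67 (adjusted p = 0.0025 and 0.0016), and Hilpda, a lipid droplet protein, by 0.64 in IL10-/- cells (adjusted p = 0.0055).

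With LPS 6 of the 81 rose and 12 fell in IL10-/- cells (7.41% and 14.8%, beside 7.76% and 17.1% of all genes), and 9 rose and 23 fell in p50-/-IL10-/- cells (11.1% and 28.4%, beside 10.3% and 22.1%), so most of these shares lay near those of all genes. Siah2, a ubiquitin ligase that acts on the Egln enzymes, rose by 0.87 and 1.17. Cxcr4, a chemokine receptor, fell by −1.73 and −3.28 and was the only one of the 81 whose LPS response differed between the genotypes (−1.56, adjusted p = 0.022). Between the genotypes 1 of the 81 was higher and 1 lower in p50-/-IL10-/- cells without stimulus (1.23% each, beside 1.26% and 1.31% of all genes), and 6 were higher and 7 lower with LPS (7.41% and 8.64%, beside 5.66% and 6.72%), all near the shares of all genes. With both stimuli 6 were higher and 13 lower (7.41% and 16.0%, beside 7.58% and 10.4%). Under both stimuli Hmox1, heme oxygenase, was lower by −1.45 and Slc16a1 by −0.86 (adjusted p = 0.0098 and 0.00098), while Cited2 was higher by 1.30 (adjusted p = 0.0012). The genotype difference of the IL-10 effect was called in 0 of the 81.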

How the data were processed

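RMA log2 values of 22690 probe sets on 12 Affymetrix arrays, as deposited by the authors, were used; RMA and limma are named per the submitters' processing notes, with no version given in the sources used here. RMA gives all arrays 1 distribution and compresses changes of dim genes, so a change in total RNA is not visible. Samples were grouped by the labels.

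Probe sets with 1 gene symbol (20393; 691 had several and 1606 none) gave 12394 genes. Probe sets whose names end in _x_at, _s_at or _a_at can take signal from related transcripts. The brightest probe sets of Aldoa, Tpi1 and Pgk1 end in _x_at and those of Slc2a3 and Ndrg1 in _s_at. Those of Slc2a1, Hk1, Pfkl, Aldoc, Pgam1, Eno2, Ldha and Hif1a end in _a_at. Group means were fitted with limma 3.58.1 (R 4.3.3; 6 residual and 4.47 prior degrees of freedom), with 11 two-sided contrasts and Benjamini-Hochberg adjustment over all genes, tested on simulated data. A group mean under 5.60, the highest lower quartile of an array, is called dim.

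Described in full are up to 4 called genes per direction and comparison and those whose response differed between the genotypes. The members and lists were chosen with earlier results of these data known. Alternatives were other sample sets, centring, filters, probe set rules, priors, a replicate block and leaving out each array.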

Additional observations from a re-analysis of the deposited data

Results flagged for a closer look

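For 4 of the 31 genes the response to LPS differed between p50-/-IL10-/- and IL10-/- cells by a test of the difference itself, with 2 arrays in each of the 4 groups. Hk2 differed by 1.08 ± 0.14 (SE; limma's adjusted p = 0.0084), with both p50-/-IL10-/- LPS arrays above both IL10-/- LPS arrays. Pfkl differed by −0.92 ± 0.12 (adjusted p = 0.0084), as LPS raised it in one genotype and lowered it in the other. Eno2 differed by −2.65 ± 0.25 (adjusted p = 0.0015), where the stimulated p50-/-IL10-/- values were dim. Slc16a3 differed by −0.75 ± 0.15 (adjusted p = 0.0431), which was lost with any 1 of the 8 arrays left out. The averages of the 7 neutrophil markers, which lay lower in p50-/-IL10-/- cells under each stimulus, are given beside the comparisons, and their part in these differences was not tested.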

How the results depend on the processing

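The replicate numbers were not taken to pair the samples: the deviations of same-numbered arrays correlated at −0.49 to 0.59 over the 15 pairs of groups, above 0.1 in all 10 pairs without the p50-/-IL10-/- LPS+IL-10 group and below −0.1 in the 5 pairs with it. The replicate block used the numbers as labelled, and whether those of that group match the other groups was not tested. With the replicate block 1 of the 31 genes, Pfkfb3, was called for the genotype difference of the IL-10 effect (limma's adjusted p = 0.0313), Eno2 was called lower for IL-10 in IL10-/- cells (adjusted p = 0.0349), and the 58 differences named by the rule kept their calls. The genotype difference of the IL-10 effect, with 0 calls, gave 1 call each with the mean of all probe sets and with a trended and robust prior, and 0 to 1 with 1 array left out. For IL-10 in IL10-/- cells 8 of 15 calls were made when only the groups compared were fitted. The IL-10 calls in p50-/-IL10-/- cells went from 5 to between 1 and 4 with 1 array left out, and to 7 with the replicate block and with the mean of all probe sets, each adding Ldha and Egln1. For the genotypes without stimulus 2 genes were called when only the groups compared were fitted, with genes dim in every group left out and with the mean of all probe sets, and 0 to 1 with 1 array left out. The cause of these shifts was not tested. Of 687 alternative values of the 58 named differences 0 changed direction. Calls were lost in 40 values and kept in 208 with 1 array left out, lost in 16 and kept in 17 with the next brightest probe set, and lost in 8 with only the groups compared, in 4 with the trended prior, in 2 with every probe set tested, and in 1 each with centred arrays and averaged probe sets. Dim groups of Eno2, Adm and Ddit4 limit the size of their changes, and arrays give no count of molecules.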
